A study of Mus musculus with 8 samples.

Results

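The glutathione peroxidase family of the mouse has 8 genes, *Gpx1* to *Gpx8*, and was followed by gene symbol through 2 tables of messenger RNA levels, one for hepatic stellate cells (HSCs) and one for bone marrow-derived macrophages (BMDM). Of the 8 genes, 7 had a row among the 18645 genes of the HSC table and 6 among the 17408 genes of the BMDM table. *Gpx6* had no row in either table, and *Gpx2* had none in the BMDM table. The activated HSCs came from the liver of C57BL/6 mice, with 2 control libraries, untreated by the sample labels and given vehicle by the study's text, and 2 libraries of cells given auranofin, a gold compound, at 0.03 µM, for 12 h by the study's text. The BMDM, also C57BL/6, were grown from the marrow of 8-week-old males for 7 days with M-CSF, and every library received LPS at 100 ng/mL and ATP at 1 mM. In 2 of these BMDM libraries auranofin was given as well, for 1 h, at 0.1 µM by the sample labels, whereas a figure legend of the study gives 0.3 µM. The 2 controls of the macrophage experiment thus carry LPS and ATP too, and neither experiment can show the effect of LPS or ATP. Nothing states that the 2 replicates of a group were separate cultures, so p-values measure the spread between these libraries, which may be technical.

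Glutathione peroxidases reduce hydrogen peroxide and organic hydroperoxides to water and alcohols, and most take the electrons from glutathione, which glutathione reductase then restores with NADPH. In some members the reactive residue is selenocysteine, which ribosomes insert at a UGA codon that would otherwise end translation, and in the others it is cysteine. Auranofin is best known as an inhibitor of thioredoxin reductase, an enzyme that is itself a selenoprotein. The members differ in place and substrate: *Gpx1* acts in the cytosol and mitochondria, *Gpx4* on phospholipid hydroperoxides in membranes, *Gpx3* is secreted into plasma, *Gpx2* belongs to the gut epithelium, *Gpx5* is secreted in the epididymis, *Gpx6* is an olfactory gene, and *Gpx7* and *Gpx8* lie in the endoplasmic reticulum.

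The 6 members whose levels were compared between conditions are shown by the coding sequence around their active-site codon, because this codon separates the selenoenzymes from the cysteine enzymes. Each line reads 5′ to 3′ along the coding strand, from GENCODE M21 transcripts (GRCm38, the assembly of mm10), with the active-site codon in capitals and 8 codons on each side.
Gpx1: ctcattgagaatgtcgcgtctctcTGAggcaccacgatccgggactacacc
Gpx3: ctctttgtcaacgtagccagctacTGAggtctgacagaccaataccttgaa
Gpx4: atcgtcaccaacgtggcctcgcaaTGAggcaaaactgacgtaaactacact
Gpx5: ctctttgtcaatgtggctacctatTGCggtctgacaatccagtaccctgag
Gpx7: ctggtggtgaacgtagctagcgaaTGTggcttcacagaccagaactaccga
Gpx8: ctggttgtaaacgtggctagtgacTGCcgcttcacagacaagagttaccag
The codon was TGA, annotated as selenocysteine, in *Gpx1*, *Gpx3* and *Gpx4*, and also in *Gpx2*. It was TGC in *Gpx5* and *Gpx8* and TGT in *Gpx7* and *Gpx6*, both of which encode cysteine. It is codon 47 of the 201 codons of *Gpx1*, codon 73 of *Gpx3* and *Gpx5*, codon 56 of *Gpx7*, codon 79 of *Gpx8*, and codon 129 of *Gpx4*, counted in the longest of its coding sequences. The windows lie at chr9:108339427-108339477 on the plus strand for *Gpx1*, at chr10:80054713-80054763 on the plus strand for *Gpx4*, at chr4:108403406-108403456 on the minus strand for *Gpx7* and at chr13:113045637-113045687 on the minus strand for *Gpx8*. The windows of *Gpx3* and *Gpx5* cross an intron, with the codon at chr11:54907256-54907258 on the plus strand and at chr13:21291336-21291338 on the minus strand. The coding sequences were aligned to that of *Gpx1*, and identity was taken over the aligned bases alone, with gaps left out. *Gpx2* was identical at 71.4% of these bases, followed by *Gpx3* with 64.5%, *Gpx6* with 63.6% and *Gpx5* with 62.1%. *Gpx7* had 60.3%, *Gpx4* 59.7% and *Gpx8* 59.0%.

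Levels are given in FPKM, the fragments of a gene scaled to the length of its transcript and to the total of its library, so they can be set against each other between genes of a table. The deposited tables were normalized separately, and levels of the 2 cell types are therefore shown side by side and were not tested against each other. In the 2 HSC controls, *Gpx4* was the most abundant member at 355 FPKM in both, above 99.1% of the genes of the table. *Gpx3* followed at 80.6 and 77.5 FPKM, *Gpx8* at 56.0 and 50.2 FPKM, *Gpx1* at 39.6 and 38.5 FPKM and *Gpx7* at 24.1 and 25.6 FPKM. No neighbours in this order overlapped among the controls. *Gpx5* was lower, at 6.82 and 2.86 FPKM, and *Gpx2* lay at the limit of detection.

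In the BMDM controls, *Gpx4* and *Gpx1* together made up almost all of the family's messenger RNA, with 167 and 159.7 FPKM for *Gpx4* and 133 and 124 FPKM for *Gpx1*. *Gpx3* had 3.73 and 3.16 FPKM there, and *Gpx5* had 0 and 2.79 FPKM, so these neighbours in the order lay close together. The genes of the endoplasmic reticulum, well expressed in HSCs, were almost absent. *Gpx7* had 0.0830 and 0.162 FPKM in the controls and 0.236 and 0.143 FPKM with auranofin, which stands for between 3.18 and 10.6 estimated fragments per library. *Gpx8* was listed at 0 in both controls and had 0.0845 and 0.112 FPKM with auranofin, about 3.08 and 4.01 fragments, where 3 fragments correspond to 0.0823 and 0.0835 FPKM. *Gpx2*, in the HSC table alone, had 0.0596 and 0 FPKM in the controls and 0.0629 and 0.0714 FPKM with auranofin, or at most about 3.01 fragments. These genes were below the mean of 1 FPKM set for a test, and no fold change is given for them. That left 6 members for the test in HSCs (*Gpx1*, *Gpx3*, *Gpx4*, *Gpx5*, *Gpx7* and *Gpx8*) and 4 in BMDM (*Gpx1*, *Gpx3*, *Gpx4* and *Gpx5*).

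**Figure D1:**
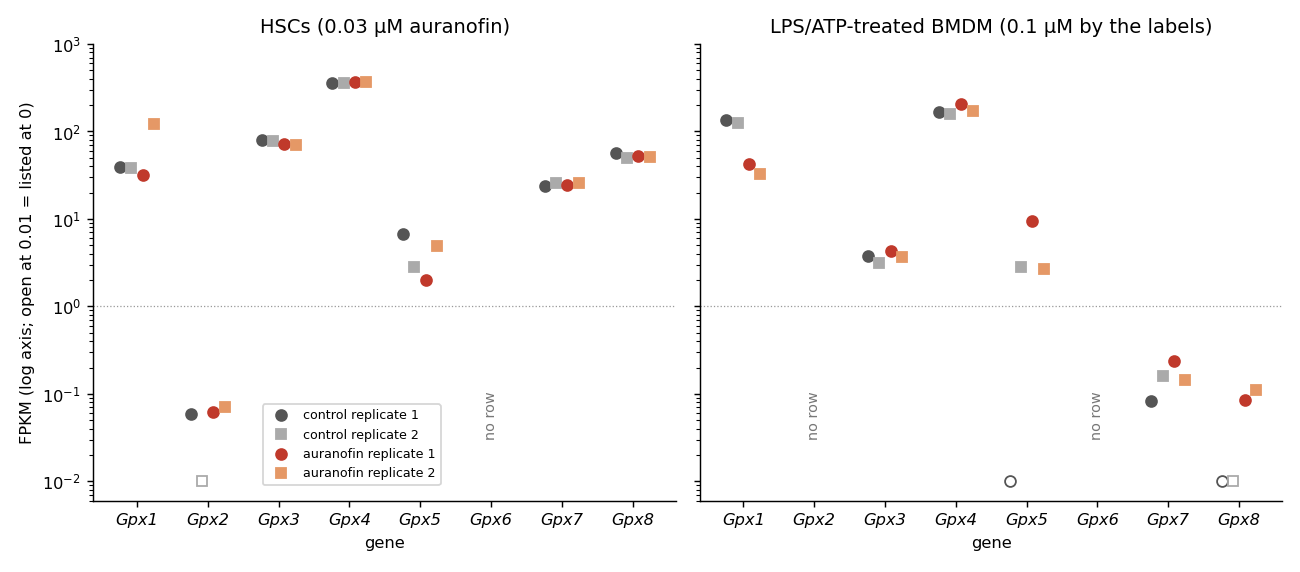
Levels of the 8 members in every library, in FPKM on a log axis, for HSCs (left) and LPS/ATP-treated BMDM (right). Grey points are controls, red and orange points are auranofin replicates 1 and 2, open points are libraries in which the gene is listed at 0, and the dotted line is the minimum mean of 1 FPKM for a test. *Gpx1* is low in both BMDM auranofin libraries (42.1 and 32.6 FPKM) and high in one HSC auranofin library (121 FPKM), while *Gpx4* moves little in either cell type.

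The library depth behind these values, estimated from the steps that single fragments make in low values, was 29800000 to 39500000 fragments in HSCs and 27500000 to 35000000 fragments in BMDM. One BMDM library stood apart before any test. Of the 4245 genes averaging 10 FPKM or more, 406 and 424 lay 2-fold or further from the controls in auranofin replicate 1, and 16 and 12 in auranofin replicate 2. The HSC cultures also held macrophage and endothelial transcripts. All 12 macrophage markers examined had a row and together reached 7152 and 7156 FPKM in the HSC controls and 7026 and 7022 FPKM with auranofin, mostly *Lyz2*, beside 4432 and 4568 FPKM for 12 stellate cell markers in the controls and 3857 and 3956 FPKM with auranofin. The 7 endothelial markers examined summed to 190 and 184 FPKM in the HSC controls and 194 and 182 FPKM with auranofin. Single markers within these sums went both ways. Both auranofin libraries lay above both controls in 2 endothelial markers and below in 2. For the 11 macrophage markers tested these counts were 1 above and 4 below, beside 26.2% and 23.9% of all genes. Hepatocyte markers summed to at most 1.84 FPKM in HSCs. In BMDM, macrophage markers summed to between 7071 and 7981 FPKM and stellate cell markers to at most 11.1 FPKM. Which cells in the HSC cultures carried a member's messenger RNA cannot be told apart, and in both experiments fewer cells of a type and less RNA per cell cannot be told apart either.

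Differences between auranofin and control were tested with limma on log2(FPKM + 1), a scale on which the change of a low gene is understated, and a gene was called when it differed at least 1.5-fold with an unadjusted p under 0.05. In BMDM, 1 of the 4 members tested was called, *Gpx1*, which was lower, and across all of its genes 0.152% of 9232 genes were called. In HSCs, 0 of the 6 members tested were called, beside 0.576% of 12149 genes. At an adjusted p under 0.05 (limma, Benjamini-Hochberg), 0 members passed in either cell type, beside 0.0108% of genes in BMDM and 2.33% in HSCs. At an unadjusted p under 0.05 from limma, 1 member passed in each, *Gpx1* in BMDM, where 0.531% of all genes did, and *Gpx3* in HSCs, where 17.8% of all genes did.

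*Gpx1*, on chromosome 9 of mm10 from 108339080 to 108340342, encodes the main cytosolic enzyme of the family. In BMDM it had 133 and 124 FPKM in the controls and 42.1 and 32.6 FPKM with auranofin. Both auranofin libraries lay far below both controls, the groups did not overlap, and the means differed 3.44-fold. On the log2 scale the difference was -1.77 (standard error, SE, 0.17) with a limma p of 0.000441, and a p of 0.721 once adjusted by Benjamini-Hochberg over the 9232 genes. Leaving out each library in turn gave log2 fold changes from -1.94 to -1.59. Such fits leave a group with a lone library, so their p-values are not given. At about 1206 to 4250 fragments per library, counting alone gives *Gpx1* an error of 1.53 to 2.88%, small beside the difference between the groups.

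The fall of *Gpx1* stood out most in the library that otherwise resembled the controls. In BMDM auranofin replicate 2, 7 of 9232 genes, or 0.0758%, were at least 2-fold below both controls, and *Gpx1* was one of them. It had the third lowest difference from the control mean among all genes tested there, -1.94 on the log2 scale. In auranofin replicate 1 the difference was -1.59, and 308 genes (3.34%) were at least 2-fold below and 702 genes (7.60%) at least 2-fold above both controls. *Gpx1* was the single gene of the table with both auranofin libraries at least 2-fold below both controls, while 8 genes lay at least 2-fold above in both. This criterion was chosen after the values were seen.

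**Figure D2:**
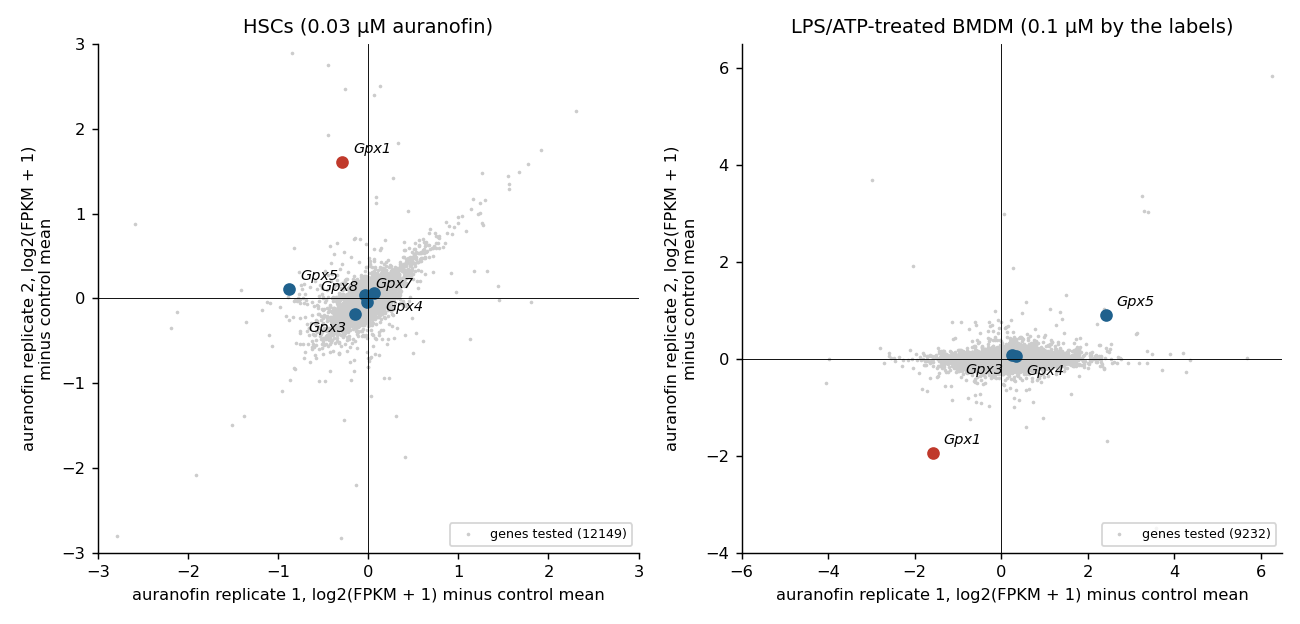
Each gene's log2(FPKM + 1) in auranofin replicate 1 (horizontal) and auranofin replicate 2 (vertical) minus the mean of the controls, for HSCs (left) and BMDM (right). Grey points are all genes tested, blue points the other members, and the red point is *Gpx1*, with 5 and 3 genes outside the plotted ranges. In BMDM most genes spread along the horizontal axis alone, and *Gpx1* is low on both axes (-1.59 and -1.94). In HSCs *Gpx1* is high in replicate 2 alone (1.61).

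None of the 3 paralogs tested fell with *Gpx1* in BMDM. *Gpx4*, on chromosome 10 from 80047166 to 80056439, encodes the enzyme that removes phospholipid hydroperoxides and guards cells against ferroptosis. It had 167 and 159.7 FPKM in the controls and 205 and 169 FPKM with auranofin. Both auranofin libraries were above both controls, auranofin replicate 2 by little, and the log2 fold change of 0.19 (SE 0.14, unadjusted p = 0.251 and adjusted p = 0.721 from limma by Benjamini-Hochberg) did not pass the test. Leaving out auranofin replicate 1 gave 0.05, and leaving out auranofin replicate 2 gave 0.33, both under 1.5-fold. *Gpx3*, on chromosome 11 from 54902854 to 54910387, had 3.73 and 3.16 FPKM in the controls and 4.26 and 3.66 FPKM with auranofin. Its groups overlapped, with a log2 fold change of 0.16 (SE 0.14) that was 0.033 after quantile normalization. *Gpx5*, on chromosome 13 from 21286429 to 21292727, had 0 and 2.79 FPKM in the controls and 9.41 and 2.66 FPKM with auranofin. Here single libraries set the picture, since auranofin replicate 1 was the highest and control replicate 1 was listed at 0, which left a log2 fold change of 1.66 (SE 0.87) with a limma p of 0.129. The fold change was 0.70 without control replicate 1, 2.63 without control replicate 2, 0.91 without auranofin replicate 1 and 2.42 without auranofin replicate 2. With a pseudocount of 0.1 it was 3.25.
Set against its paralogs within a library, *Gpx1* moved from near the level of *Gpx4* to well below it. The log2 ratios here are differences of log2(FPKM + 1). The scaling of the library therefore nearly cancels for *Gpx4*, but only in part for the low *Gpx3* and *Gpx5*. For these low genes the added 1 also shrinks the ratio, and it alone gives a ratio where *Gpx5* was listed at 0. The log2 ratio of *Gpx1* to *Gpx4* was -0.32 and -0.37 in the BMDM controls and -2.26 and -2.34 with auranofin, a change of -1.96. Against *Gpx3* the log2 ratio was 4.83 and 4.90 in the controls and 3.03 and 2.85 with auranofin, a change of -1.93. Auranofin replicate 1 and replicate 2, unlike each other in much of the table, thus gave close ratios for these pairs. For *Gpx5*, with its library at 0, the ratio of 7.07 and 5.04 in the controls and 2.05 and 3.20 with auranofin changed by -3.43, and by between -5.04 and -2.41 under the alternatives run. All 3 ratios were lower in both auranofin libraries than in both controls, with an exact two-sided permutation p of 0.3333 each, the smallest that 2 libraries against 2 allow.
The makeup of the family changed accordingly. *Gpx1* was 43.9 and 42.7% of the family's summed FPKM in the BMDM controls and 16.1 and 15.7% with auranofin, while *Gpx4* went from 54.8 and 55.2% to 78.6 and 81.2%. The family sum was 304 and 289 FPKM in the controls and 261 and 208 FPKM with auranofin. Without *Gpx1* it was 170.4 and 166 FPKM in the controls and 219 and 176 FPKM with auranofin, and the lower sum came with *Gpx1* and not with its paralogs. The sum of neutrophil and lymphocyte markers moved in the same libraries in the other direction. Of 6 such markers, 5 had a row and together reached 159 and 168 FPKM in the BMDM controls and 220.2 and 223 FPKM with auranofin. Almost all of this sum was *S100a8* and *S100a9*, while *Mpo* and *Elane* stayed below 1 FPKM in every library. The lymphocyte marker *Cd79a* was lower, with 0.114 and 0.123 FPKM in the controls and 0.0250 and 0.0216 FPKM with auranofin. The part of these markers in the result was not tested.

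In HSCs the 2 auranofin libraries gave opposite values for *Gpx1*. It had 39.6 and 38.5 FPKM in the controls and 31.8 and 121 FPKM with auranofin. One auranofin library was below both controls and the other far above. The auranofin replicates differed 3.82-fold, a ratio reached by 28 of 12149 genes including *Gpx1*, or 0.230%, while the controls differed 1.03-fold. The log2 fold change of 0.66 (SE 0.56, unadjusted p = 0.285 and adjusted p = 0.591 from limma by Benjamini-Hochberg) did not pass the test. It was -0.29 without auranofin replicate 2 (unadjusted p = 0.00176 and adjusted p = 0.0699 from limma by Benjamini-Hochberg) and 1.61 without auranofin replicate 1 (limma, Benjamini-Hochberg adjusted p = 0.000319). In auranofin replicate 2, 26 genes of the table were at least 2-fold above both controls, and *Gpx1* was one of them.
Some transcripts of the neutrophil list were high in that same library. The 6 neutrophil and lymphocyte markers summed to 17.6 and 6.66 FPKM in the HSC controls, 6.22 FPKM in the first auranofin library and 68.4 FPKM in the second. Within the list, *S100a8* had 6.87 and 4.32 FPKM in the controls and 3.75 and 23.6 FPKM with auranofin, and *S100a9* had 10.8 and 2.23 FPKM in the controls and 2.43 and 44.7 FPKM with auranofin. *Mpo* and *Cd3e*, defining genes of granule-forming neutrophil precursors and T cells, were listed at 0 in auranofin replicate 2, and *Elane* had 0.0276 FPKM there. The part of these cells in the *Gpx1* value was not tested.
Laid in order, the 8 values of *Gpx1* formed a low and a high group that did not follow treatment across the cell types. The low values were 31.8 FPKM in HSC auranofin replicate 1, 32.6 FPKM in BMDM auranofin replicate 2, 38.5 and 39.6 FPKM in the HSC controls and 42.1 FPKM in BMDM auranofin replicate 1. The high values were 121 FPKM in HSC auranofin replicate 2 and 124 and 133 FPKM in the BMDM controls. The step between the groups was 2.89-fold, whereas neighbours within them differed by at most 1.18-fold. The tables were normalized separately, so this order across them was not tested.

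The other members were steadier in HSCs, apart from *Gpx5*. *Gpx4* had 355 FPKM in both controls and 371 and 372 FPKM with auranofin. The auranofin libraries were both above the controls by a small step, with a log2 fold change of 0.07 (SE 0.03, unadjusted p = 0.0716 and adjusted p = 0.325 from limma by Benjamini-Hochberg). *Gpx3*, the plasma enzyme, had 80.6 and 77.5 FPKM in the controls and 71.2 and 69.7 FPKM with auranofin. Both auranofin libraries were below both controls, by a log2 fold change of -0.16 (SE 0.04, unadjusted p = 0.00492 and adjusted p = 0.0962 from limma by Benjamini-Hochberg), which was under the 1.5-fold set for a call. The summed stellate cell markers given above were lower in the same 2 libraries, 8 of the 12 with both auranofin libraries below both controls, beside 23.9% of all genes, and their part in the *Gpx3* value was not tested.
*Gpx7*, which passes oxidation on to protein disulfide isomerases, is on chromosome 4 from 108400217 to 108406713. It had 24.1 and 25.6 FPKM in the controls and again 24.1 and 25.6 FPKM with auranofin, a log2 fold change of -0.00039 (SE 0.05). *Gpx8*, a membrane-bound enzyme of the same compartment, is on chromosome 13 from 113042757 to 113046430 and had 56.0 and 50.2 FPKM in the controls and 52.7 and 51.4 FPKM with auranofin. The auranofin values of *Gpx8* fell between the controls, with a log2 fold change of -0.03 (SE 0.06). *Gpx5* had 6.82 and 2.86 FPKM in the controls and 1.99 and 4.91 FPKM with auranofin, and its replicates differed 2.38-fold among the controls and 2.47-fold with auranofin. Its log2 fold change of -0.39 (SE 0.42, limma with a Benjamini-Hochberg adjusted p = 0.682) was within that spread.
Counted by separation of the groups, 1 of the 6 members tested in HSCs lay above the controls in both auranofin libraries (*Gpx4*), where 26.2% of all genes did, and 1 lay below (*Gpx3*), where 23.9% did. In BMDM, 1 of 4 lay above (*Gpx4*), beside 26.3% of all genes, and 1 lay below (*Gpx1*), beside 12.6%. The family sum in HSCs was 562 and 549.8 FPKM in the controls and 553 and 645 FPKM with auranofin. Without *Gpx1* it was 522 and 511 FPKM in the controls and 521 and 523 FPKM with auranofin, so the one high sum came with *Gpx1*. The log2 ratio of *Gpx1* to *Gpx4* was -3.13 and -3.17 in the HSC controls and -3.51 and -1.61 with auranofin, and the ratios to *Gpx3*, *Gpx7* and *Gpx8* were split between the auranofin libraries in the same way (exact two-sided permutation p of 1 each). The ratio to *Gpx5*, 2.38 and 3.36 in the controls and 3.46 and 4.37 with auranofin, was higher in both auranofin libraries, at the smallest p of 0.3333 from the exact permutation test.

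Spread between replicates was large for *Gpx1* in HSCs and for *Gpx5* in both cell types. In BMDM the *Gpx1* replicates differed 1.08-fold among the controls and 1.29-fold with auranofin. Libraries of one condition differed at least 2-fold in 2 of the 6 members tested in HSCs, *Gpx1* and *Gpx5*, beside 0.971% of all genes, and in 1 of the 4 members tested in BMDM, *Gpx5*, beside 13.0% of all genes. The tables list several RefSeq transcripts for 3 members, 3 for *Gpx1*, 2 for *Gpx3* and 3 for *Gpx4*, with a single FPKM value per gene. The other members with a row have 1 transcript each. Among all genes, several transcripts were listed for 31.1% in the HSC table and 31.7% in the BMDM table. Genes with several transcripts differed at least 2-fold within a condition in 1.11% of cases in HSCs, against 0.894% of genes with 1 transcript, and in 12.7% against 13.1% in BMDM. In BMDM, 10 of the 14 genes called had several transcripts, 0.299% of such genes tested against 0.0679% of those with 1, a difference that was not tested. Since levels of single transcripts were not used here, a shift between the transcripts of *Gpx1* was not tested.

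The genes around *Gpx1* on chromosome 9 did not share the size of its changes. *Rhoa*, which encodes a small GTPase of the cytoskeleton and ends 1136 bases before *Gpx1*, had 132 and 129 FPKM in the BMDM controls and 132 and 139.7 FPKM with auranofin. In HSCs *Rhoa* had 185 and 176 FPKM in the controls and 189.8 and 181 FPKM with auranofin, with none of the rise that *Gpx1* had in auranofin replicate 2. *Usp4*, a deubiquitinase gene that starts 6221 bases after *Gpx1*, had 22.3 and 22.8 FPKM in the BMDM controls and 18.5 and 21.6 FPKM with auranofin, a log2 fold change of -0.16 (SE 0.13). Of the 6 nearest genes with a row in both tables (*Rhoa*, *Tcta*, *Amt*, *Usp4*, *1700102P08Rik* and *Ccdc36*), none was called in either cell type. Of these neighbours, 3 were tested in BMDM, where 0.152% of all genes were called, and 4 in HSCs, where 0.576% were. The lowest unadjusted p among them was 0.264 in BMDM and 0.334 in HSCs from limma. *Amt*, a gene of low level, had 1.36 and 1.17 FPKM in the HSC controls and 0.897 and 1.63 FPKM with auranofin. Its auranofin libraries thus lay on either side of the controls, in the same order as those of *Gpx1*.

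**Figure D3:**
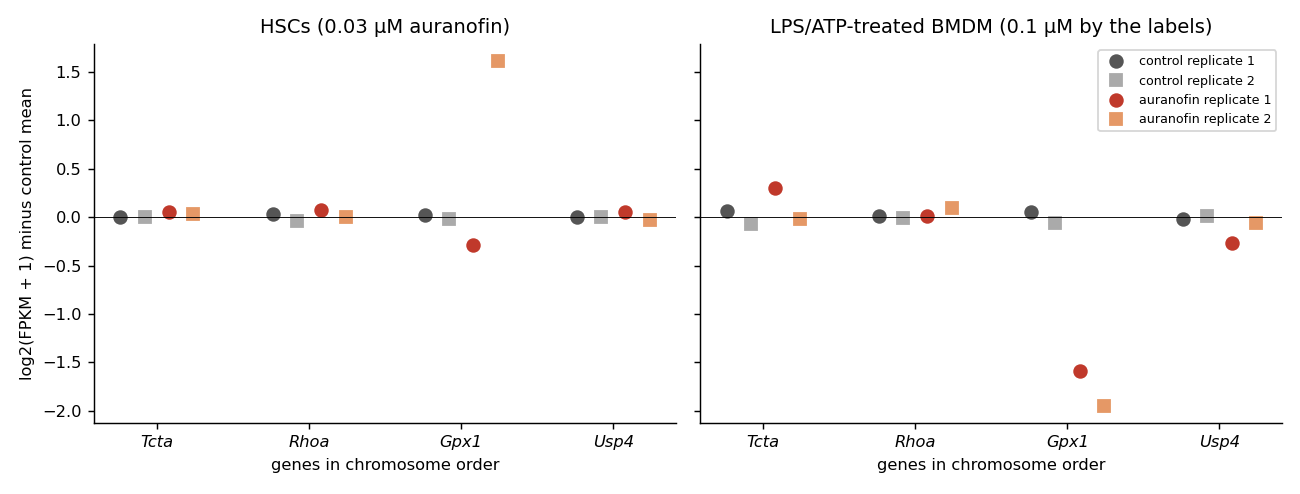
*Gpx1* and the neighbouring genes *Tcta*, *Rhoa* and *Usp4* in chromosome order, as log2(FPKM + 1) minus the mean of the controls, in the 4 HSC libraries (left) and the 4 BMDM libraries (right). Grey points are controls and coloured points are auranofin libraries. *Gpx1* leaves the zero line in both panels, and the neighbours stay close to it.

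Over the 8 libraries, each value taken relative to the control mean of its table, 8962 genes tested in both tables were ranked by Euclidean distance from *Gpx1*. The 5 nearest were *Nrros*, *Prm2*, *Hba-a2*, *Setdb2* and *G3bp2*, at distances from 1.58 to 2.17 log2 units, where the median gene was at 3.11. *Nrros* had 13.5 and 13.0 FPKM in the HSC controls, 14.1 and 30.2 FPKM in HSCs with auranofin, 34.8 and 18.5 FPKM in the BMDM controls and 6.48 and 16.2 FPKM in BMDM with auranofin. It was thus high in the same HSC library as *Gpx1* and lower in both BMDM auranofin libraries than in the controls. *Setdb2* shared the BMDM part alone, with 37.6 and 35.2 FPKM in the controls and 20.8 and 20.5 FPKM with auranofin. *Hba-a2* is an alpha globin gene of red cells whose near-identical copy makes its value uncertain. In HSCs it had 0.283 and 0.121 FPKM in the controls and 0 and 5.62 FPKM with auranofin, high in the same library as *Gpx1*. In BMDM it had 4.27 and 2.02 FPKM in the controls and 1.64 and 1.37 FPKM with auranofin, lower in both auranofin libraries. No member of the family was near, with *Gpx4* at 3.19, *Gpx3* at 3.27 and *Gpx5* at 5.42 log2 units. These 8 libraries share controls and tables, so the distances are a description. The 5 genes were picked for their likeness to *Gpx1*, so the highs and lows they share with it follow from that choice. In HSCs, *Hba-a2* and *Prm2* also reached the mean of 1 FPKM only through auranofin replicate 2.

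The pathways that serve the peroxidases were read with 6 gene lists. Glutathione supply and recycling (11 genes) covers the import of cystine, the synthesis of glutathione and the NADPH that renews it. In HSCs, 5 of its 11 genes were called, all higher, beside 0.576% of all genes, with a median log2 fold change of 0.49 over the list and 0.0049 over all genes tested. *Gclm*, the modifier subunit of the enzyme that starts glutathione synthesis, had 40.0 and 34.9 FPKM in the controls and 121 and 107 FPKM with auranofin. Its log2 fold change of 1.58 was followed by 0.76 for *Pgd*, an NADPH-producing enzyme of the pentose phosphate pathway, 0.74 for *Slc7a11*, the cystine importer, and 0.68 for *Gsr*, glutathione reductase. Both auranofin libraries were above both controls in 10 of the 11 genes, beside 26.2% of all genes. Most messenger RNAs for glutathione supply were thus higher in both HSC auranofin libraries, in which *Gpx1* took opposite directions.
Among 7 other peroxide-removing enzymes in HSCs, 2 were called, both higher, beside 0.576% of all genes. *Prdx1*, a peroxiredoxin, had 1062 and 986 FPKM in the controls and 2113 and 2007 FPKM with auranofin, and *Cat*, catalase, had 121 and 111 FPKM in the controls and 232 and 226 FPKM with auranofin. Their log2 fold changes were 1.01 and 0.97, with a Benjamini-Hochberg adjusted limma p of 0.00176 each. Among 15 other selenoproteins tested, 1 was called, beside the same 0.576% of all genes. It was *Txnrd1*, the cytosolic thioredoxin reductase, with 123 and 114 FPKM in the controls, 194 and 179.7 FPKM with auranofin and a log2 fold change of 0.65. The median over the selenoproteins was 0.02.
The lists of selenocysteine insertion factors (11 tested), of lipid peroxidation genes around *Gpx4* (9 tested) and of oxidative folding genes of the endoplasmic reticulum around *Gpx7* and *Gpx8* (7 tested) had 0 genes called in HSCs by limma and the 1.5-fold threshold. Over all HSC genes the share called was 0.576%. At an unadjusted p under 0.05 alone, 4, 4 and 0 genes of these lists passed, where 17.8% of all genes did. At an adjusted p under 0.05 (limma, Benjamini-Hochberg), 2, 2 and 0 passed, all of them higher but under 1.5-fold, beside 2.33% of all genes. Their medians were 0.04, 0.06 and 0.04.

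In BMDM, 0 genes of the 6 lists were called by limma and the 1.5-fold threshold, beside 0.152% of all genes. Likewise 0 had an unadjusted p under 0.05 from limma, beside 0.531% of all genes. With shares this small, counts of 0 say little about the lists. In most of the named list genes 1 library differed from the other 3. *Gclm* had 6.08 and 6.12 FPKM in the controls, 129 FPKM in the first auranofin library and 6.72 FPKM in the second. *Prdx1* had 687 and 654 FPKM in the controls and 3075 and 695 FPKM with auranofin, and *Txnrd1* had 89.2 and 91.9 FPKM in the controls and 582 and 85.3 FPKM with auranofin. The summed glutathione supply list was 792 and 692 FPKM in the controls and 1440.2 and 707 FPKM with auranofin. *Gpx1* was low in both of these auranofin libraries, the one in which most lists were high and the one in which they lay near the controls. Median log2 fold changes over the lists were 0.77 for glutathione supply, 0.16 for the other peroxide-removing enzymes, 0.13 for other selenoproteins, 0.04 for selenocysteine insertion, 0.17 for lipid peroxidation and 0.14 for oxidative folding, and the median over all genes tested was 0.09.

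**Figure D4:**
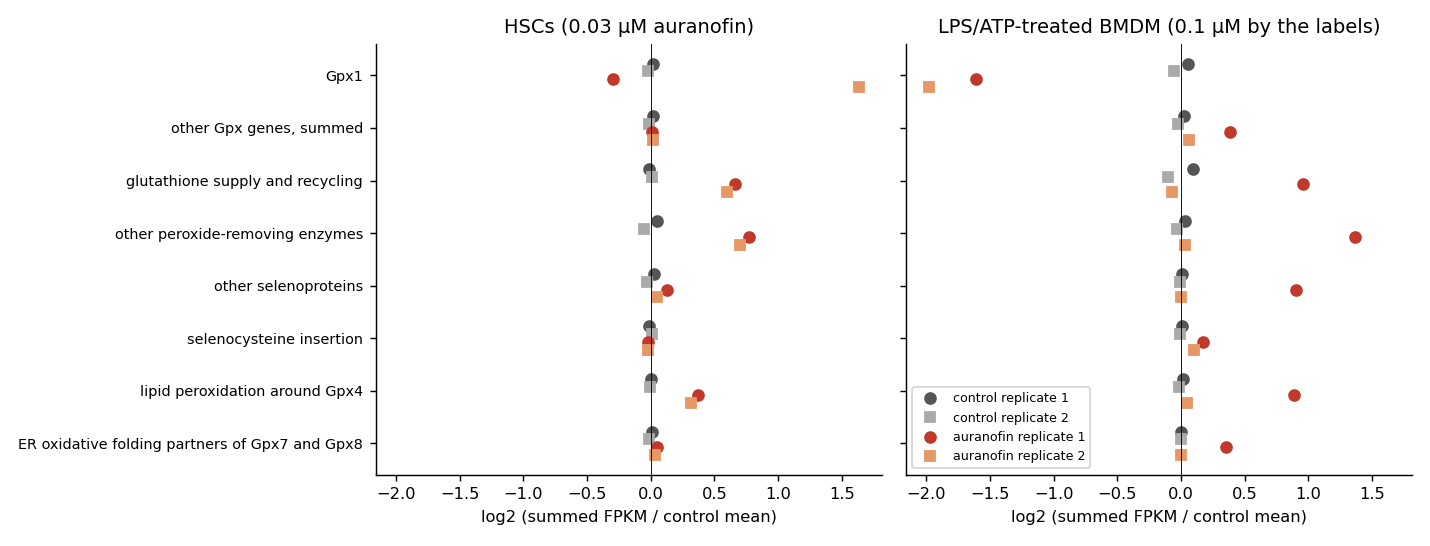
Summed FPKM of *Gpx1*, of the other family members and of the 6 gene lists in each library, as log2 of the ratio to the mean of the controls, for HSCs (left) and BMDM (right). Grey points are controls, and red and orange points are auranofin replicates 1 and 2. In BMDM 5 of the lists are high in replicate 1 alone, the selenocysteine insertion list is slightly above the controls in both replicates (367 and 350.0 FPKM, against 327 and 324 FPKM), and *Gpx1* is low in both. In HSCs the glutathione supply list and the other peroxide-removing enzymes are high in both replicates, and *Gpx1* is split.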

How the data were processed

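Messenger RNA of 4 HSC and 4 BMDM libraries, made with a stranded mRNA kit, was analysed. The authors deposited FPKM values per gene on mm10 with RefSeq transcripts. The submitters' processing notes name CASAVA, FastQC 0.11.7, Trimmomatic 0.38, HISAT2 2.1.0 and StringTie 1.3.4d, without their settings. The tables hold no counts, so count tests were not used. FPKM divides by a modelled transcript length and by the library's total, and a rise of a few abundant genes lowers the rest.

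Groups came from the sample labels. Each table was fitted alone with limma 3.58.1 (R 4.3.3, lmFit and eBayes with trend) on log2(FPKM + 1), for genes averaging 1 FPKM or more, and p-values were adjusted over the table by Benjamini-Hochberg. Calls required 1.5-fold and an unadjusted p under 0.05. Ratios of *Gpx1* to other members, as differences of log2(FPKM + 1), were tested with an exact two-sided permutation test. The limma test was also run on simulated data with known changes and independent noise per gene. That setting lacks the shared departure of many genes in BMDM auranofin replicate 1, so it does not cover that library. Depth was estimated from values under 0.2 FPKM that lie on steps of 1 fragment, with GENCODE M21 lengths, and covers counting error only. For *Gpx1* a length of 1072 bases was used. Gene positions are from a RefSeq gene table of GRCm38, and coding alignments used Biopython 1.88. Python 3.11.15, numpy 2.4.6, pandas 2.3.3 and matplotlib 3.10.9 were used.

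The members and gene lists were chosen with earlier results of these data known. Genes named were every member, called list genes (at most 4 per list and table, largest change first), the 3 nearest genes on each side of *Gpx1* and the 5 nearest in pattern. Other names (*S100a8*, *S100a9*, *Mpo*, *Elane*, *Cd3e*, *Cd79a* and *Lyz2*, all from the marker lists) were chosen after their values were seen. Alternatives were a pseudocount of 0.1, other filters and scalings, no variance trend, a replicate block, and each library left out in turn.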

Additional observations from a re-analysis of the deposited data

Results flagged for a closer look

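The log2 fold change of *Gpx3* with auranofin differed in sign between the cell types, by 0.32 (BMDM minus HSCs). It was 0.16 in BMDM, where both auranofin libraries were above the mean of the controls, and -0.16 in HSCs, where both were below it. The BMDM value was 0.033 with quantile normalization, 0.067 with centring on the median, 0.067 without control replicate 2 and 0.072 without auranofin replicate 1, so the size of the difference depended on these choices. The difference was not tested, since the tables were normalized separately and the experiments differ in dose and time. The *Gpx3* level was 69.7 to 80.6 FPKM in HSCs and 3.16 to 4.26 FPKM in BMDM.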

How the results depend on the processing

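The log2 fold change of *Gpx1* in BMDM kept its direction under every alternative run, between -1.94 and -1.59, and its call wherever no library was left out. In HSCs it was -0.29 without auranofin replicate 2 and up to 1.61 without auranofin replicate 1. Without auranofin replicate 2, the change in its log2 ratio in HSCs turned to -0.14 against *Gpx3*, -0.35 against *Gpx4*, -0.25 against *Gpx7* and -0.28 against *Gpx8*, and without auranofin replicate 1 these were 1.79, 1.55, 1.57 and 1.66. With single libraries left out, the BMDM values of *Gpx5* ran from 0.70 to 2.63. The HSC values ran from -0.90 to 0.12 for *Gpx5*, reversed without control replicate 1 (0.12) and without auranofin replicate 1 (0.11), from -0.043 to 0.042 for *Gpx7*, reversed without control replicate 2 (0.042) and without auranofin replicate 1 (0.040), and from -0.11 to 0.052 for *Gpx8*, reversed without control replicate 1. In these fits the lone library is assumed to vary like the other group.
Over all genes, calls in HSCs (70) became 124 with a pseudocount of 0.1 and 106 to 137 with a library left out, and genes at an adjusted p under 0.05 (283) became 49 without a filter, 129 without a trend and 177 to 493 with a library left out. In BMDM, calls (14) became 27 with a pseudocount of 0.1, 8 with a mean of at least 5 FPKM, 42 with the replicate block and 14 to 2122 with a library left out. Genes at an adjusted p under 0.05 in BMDM (1) became 0 without a filter, 0 with quantile normalization, 2 without a trend and 1 to 5997 with a library left out. The cause was not tested. The replicate block changed no member's call. The replicate numbers share only a number, with correlations of deviations of 0.109 in HSCs and -0.055 in BMDM.
With 2 libraries a group, members under 1 FPKM and changes within the spread of *Gpx5* were not detectable.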
